A study of Mus musculus with 6 samples.

Results

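The cytosolic heat shock proteins are the ATP-driven and small chaperones that hold, fold and release other proteins in the cytosol, and here they comprise 10 named genes of the 21240 in the count table. Membership goes by name and function, and the rule uses no measured value: the Hsp70 genes Hspa1a, Hspa1b and Hspa8, the Hsp110 gene Hsph1, the Hsp40 co-chaperone Dnajb1, the Hsp90 genes Hsp90aa1 and Hsp90ab1, the small heat shock protein genes Hspb1 and Hspb8, and the transcription factor Hsf1. All 10 were found in the table. RNA was measured in NMuMG cells, a single epithelial line from normal mouse mammary gland, in 3 groups of 2 biological replicates. All cells were first kept for 6 h in medium without serum and insulin. Vehicle cells then received the carrier (HCl with BSA in the treatment protocol, Tris-HCl with BSA in the sample label) for 2 h, and treated cells received 5 ng/ml TGFβ1 for 2 h or for 12 h. Vehicle was taken at 2 h only, so that the 12 h cells had spent 18 h without serum and insulin and the others 8 h. Exposure to TGFβ and this time cannot be told apart when the 12 h cells are compared with vehicle or with the 2 h cells.

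In the cytosol, Hsp40 proteins bring unfolded clients to Hsp70, Hsp110 exchanges the nucleotide of Hsp70, and Hsp90 acts later on near-native clients such as kinases and steroid receptors. Small heat shock proteins hold unfolded proteins without ATP. HSF1 is held inactive by chaperones in unstressed cells and, when unfolded proteins draw the chaperones away, it binds heat shock elements, which are repeats of the unit nGAAn in alternating orientation, and raises transcription of the inducible members.

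Total RNA libraries were sequenced in single 50-base reads, and the 6 libraries held between 14705886 and 23786993 counts, of which the 10 genes took between 0.208% and 0.294%. Of the 8 epithelial markers, 5 passed the filter on low counts (Cdh1, Krt7, Krt8, Krt18 and Krt19), with a summed level of 4965 to 5786 CPM (counts in every 1000000 of the library, after TMM scaling) in vehicle, 6447 to 6482 at 2 h and 10332 to 10379 at 12 h, whereas Epcam, Cldn7 and Esrp1 stood at or near 0. The markers did not move one way: from vehicle to 12 h, mean levels went from 1074 to 3333 CPM for Krt8, from 2151 to 6191 for Krt18 and from 1.45 to 4.44 for Krt7, but from 1757 to 455 for Krt19 and from 392 to 372 for Cdh1. Fibroblast, leukocyte and endothelial markers stayed at or below 3.04 CPM, and adipocyte and muscle markers at or below 1 count. Below that ceiling, the 3 endothelial markers summed to 0.118 to 0.191 CPM in vehicle and 1.74 to 1.95 at 12 h, with Cdh5 at 1 and 2 counts in vehicle and 39 and 36 at 12 h, and the fibroblast marker Pdgfrb went from 0 and 0 counts to 22 and 26. The part of these marker differences in the results was not tested. With 2 replicates a group, p-values measure the spread between these cultures.

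Several of these genes share sequence with near-identical copies, and only reads with a single placement were counted, so the exonic windows of 50 bases that occur exactly once in the mm9 (NCBIM37) genome set how much of each gene could be read. Hspa1a (chromosome 17, 35106144 to 35109069, minus strand) and Hspa1b (chromosome 17, 35093381 to 35096183, minus strand) are single-exon neighbours that encode the stress-inducible Hsp70. Their coding sequences differed at 8 of 1926 aligned bases with a longest identical run of 638 bases, and 39.0% and 37.7% of their windows were unique. Hspa1b was identical to the constitutive Hsp70 gene Hspa8 at 1439 of 1929 aligned coding bases. The following stretch, bases 1362 to 1421 of both coding sequences from GENCODE vM1 transcripts, is shown because it carries 2 of those 8 differences, set in capitals. The coding sequences are 1926 and 1929 bases long. A 50-base coding read clear of the 8 differences and of the length difference matches both genes.
Hspa1a: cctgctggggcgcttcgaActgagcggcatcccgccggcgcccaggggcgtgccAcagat
Hspa1b: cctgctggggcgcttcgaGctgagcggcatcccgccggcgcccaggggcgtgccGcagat

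Copies elsewhere in the genome reduced the readable part of 3 other members. Hspa8 (chromosome 9, 40609067 to 40613283, plus strand) had 62.7% unique windows, and 1439 of its 4058 windows were repeated at chromosome 5, 5781529 to 5783562, where the pseudogene Gm15459 and the lincRNA Gm17431 are annotated. Hsp90aa1 (chromosome 12, 111928815 to 111940938, minus strand) had 43.8%, with 1676 of 3392 windows repeated at the pseudogene Gm12346 on chromosome 11, 77106946 to 77109893, inside Ssh2. Hspb1 (chromosome 5, 136363789 to 136365433, plus strand) had 44.4%, with 519 of 933 windows repeated on chromosome 13, 45173739 to 45174553, which is annotated both as the pseudogene Hsp25-ps1 and as the protein-coding gene Gm9817. The other members were nearly whole, with 92.8% for Hsp90ab1 (chromosome 17, 45704724 to 45710220, minus strand), 99.3% for Dnajb1 (chromosome 8, 86132074 to 86135801, plus strand) and 100% for Hsph1 (chromosome 5, 150416862 to 150438951, minus strand), Hspb8 (chromosome 5, 116858500 to 116872873, minus strand) and Hsf1 (chromosome 15, 76307865 to 76331402, plus strand). Hspa8 also holds the small nucleolar RNA genes Snord14c, Snord14d and Snord14e on its own strand.

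**Figure D1:**
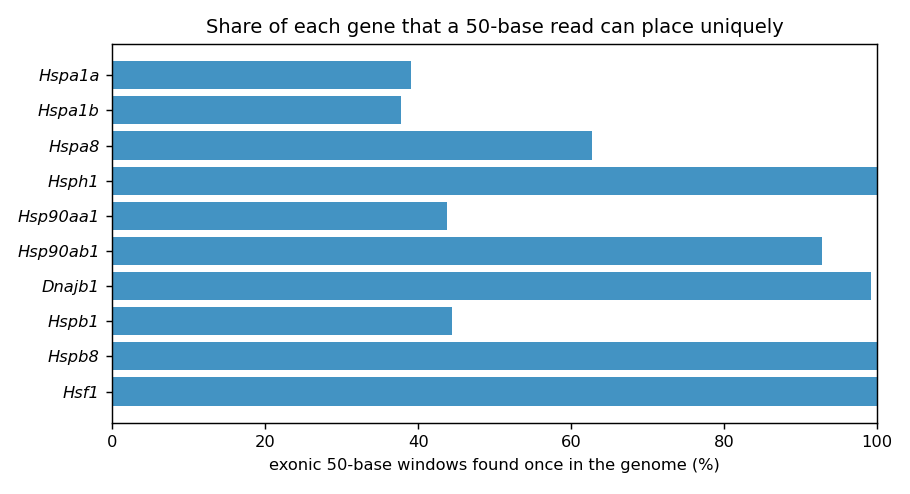
Bars give, for each of the 10 genes, the percent of exonic 50-base windows that occur once in the NCBIM37 genome (axis from 0). Hspa1a, Hspa1b, Hsp90aa1 and Hspb1 lie below 45%, Hspa8 at 62.7% and the other 5 genes at 92.8% or more.

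Promoters of 6 members were found in the RefSeq table of windows running from 250 bases before to 50 after the annotated start (GRCm38.p6, 8 windows in all). Pairs of heat shock units were searched on both strands as TTCNNGAA and GAANNTTC, each of which is its own reverse complement and which can overlap each other. A pair was present for 5 of the 6 members and in 4946 of all 32851 windows (15.1%). The stretches below are shown because they carry the upstream pairs, in capitals. Positions count the start base as 0, and Hspa1b (chr17:34959290-34959389, minus strand) has the same 100 bases as the Hspa1a stretch.
Hspa1a (chr17:34972208-34972307, minus strand): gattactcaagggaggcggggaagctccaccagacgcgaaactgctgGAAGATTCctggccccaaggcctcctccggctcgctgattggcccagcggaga
Hspb1 (chr5:135887765-135887864, plus strand): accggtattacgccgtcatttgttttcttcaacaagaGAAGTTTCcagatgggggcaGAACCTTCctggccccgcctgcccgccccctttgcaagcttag
Hsph1 (chr5:149636316-149636415, minus strand): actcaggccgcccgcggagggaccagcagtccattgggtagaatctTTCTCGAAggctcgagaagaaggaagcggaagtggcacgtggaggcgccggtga

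The pair lay at -104 to -97 in both Hspa1a and Hspa1b, whose 300-base windows differed at 4 bases. Hspb1 had pairs at -117 to -110 and -97 to -90, and Hspb8 had one just after its start, at 2 to 9. Both windows of Hsph1, which start at different bases, held one before the start, at -54 to -47 in one and -33 to -26 in the other, and a run of 3 units after it, at 15 to 27 and 36 to 48, a form found in 198 of the 32851 windows (0.603%). Neither of the 2 Dnajb1 windows held a pair. Matches are letters in a window, and binding of HSF1 was not measured here.

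To set the genes side by side, counts were divided by exon length (RPKM, the CPM per kilobase of union exons). Hsp90ab1, the constitutive cytosolic Hsp90, stood far above the others in each group, at 615 ± 105 RPKM in vehicle, 684 ± 60.8 at 2 h and 781 ± 15.6 at 12 h (SD, n = 2). Its share of the RPKM summed over the 10 genes came to 83.3% ± 1.13 for vehicle, 83.1% ± 1.77 at 2 h and 82.0% ± 2.02 at 12 h. The deposited count of Hsp90ab1, 27570 to 52950, exceeded its 2999 exonic bases, so reads with the same start position were still counted for this gene.

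Hspa8 came next by its mean, at 35.9 ± 16.5 RPKM in vehicle, 43.6 ± 16.7 at 2 h and 52.3 ± 22.4 at 12 h. Hsp90aa1, the inducible Hsp90, had 25.8 ± 5.53, 22.9 ± 2.35 and 32.8 ± 1.09 RPKM. Dnajb1 had 20.1 ± 1.51, 29.6 ± 3.74 and 33.4 ± 1.53 RPKM, and Hsf1 17.2 ± 3.03, 22.6 ± 2.20 and 27.0 ± 1.04. These genes formed a middle tier whose order was loose. In vehicle the replicates of Hspa8 overlapped those of Hsp90aa1, those of Dnajb1 overlapped Hsf1, and those of Hsf1 overlapped Hsph1. At 2 h the overlapping neighbours were Hspa8 with Dnajb1 and Hsp90aa1 with Hsf1, and at 12 h only Dnajb1 with Hsp90aa1.

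Hsph1 stood at 13.1 ± 3.77, 10.8 ± 3.58 and 11.6 ± 0.62 RPKM, and Hspb8 at 7.51 ± 0.93, 6.16 ± 0.55 and 8.37 ± 1.62. The inducible Hsp70 genes were low, Hspa1b at 3.19 ± 0.41, 2.82 ± 0.77 and 3.44 ± 0.12 and Hspa1a at 0.460 ± 0.004, 0.311 ± 0.024 and 0.489 ± 0.102, with Hspb1 between them at 1.02 ± 0.66, 1.54 ± 0.03 and 3.10 ± 0.16. In all 3 groups the lower order was Hsph1, Hspb8, Hspa1b, Hspb1 and Hspa1a, with no overlap between neighbours. Dividing by unique windows in place of exon length, an alternative chosen after seeing the data, put Hsp90aa1 above Hspa8 by the mean in vehicle (68.3 against 58.6) and at 12 h (86.8 against 85.4). It also put Hsf1 above Dnajb1 in all 3 groups, and Hspa1b above Hspb8 in vehicle (8.61 against 8.35) and at 2 h (7.62 against 6.84). The order of Hspb8 and Hspa1b thus depends on the length used. Windows were taken within single exon blocks, so genes of many short exons have fewer. Hsf1 had 1492 windows, all unique, for 2178 bases in 14 blocks, and Dnajb1 2258 unique windows for 2471 bases in 4. The longest annotated transcript as length put Hsph1 above Hsf1 in vehicle (19.4 against 17.8) and Hsp90aa1 above Dnajb1 at 12 h (39.3 against 36.4).

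**Figure D2:**
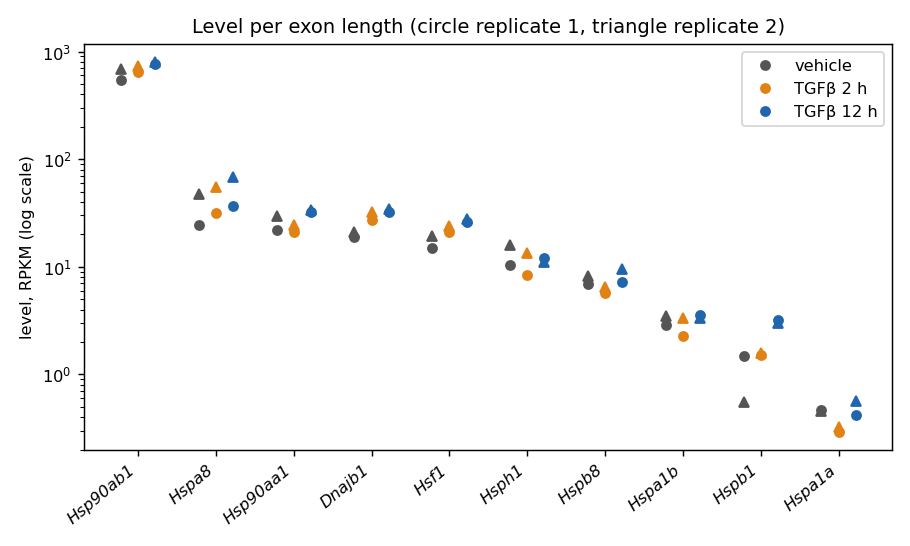
Points give each library's RPKM (log axis) for the 10 genes in vehicle, TGFβ 2 h and TGFβ 12 h. Hsp90ab1 lies between 541 and 792, the other genes at or below 68.2, and Hspa1a below 0.6.

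Hsf1, the factor that drives the inducible members, was measured at 32.8 and 42.1 CPM in vehicle, 45.8 and 52.5 at 2 h, and 57.1 and 60.3 at 12 h. The 3 groups did not overlap, with vehicle lowest and 12 h highest. With total counts in place of TMM scaling, vehicle replicate 2 (20.6 RPKM) lay above 2 h replicate 1 (20.2). At 12 h Hsf1 rose by 0.65 ± 0.15 (log2 fold change ± SE; edgeR's quasi-likelihood test, Benjamini-Hochberg adjusted p = 0.0130), or 1.57-fold, against vehicle. At 2 h its log2 fold change was 0.39 ± 0.15 and did not pass the test over all genes (adjusted p = 0.138, unadjusted p = 0.0361), and between 2 h and 12 h it was 0.26 ± 0.15 (adjusted p = 0.224). The 12 h call ended when vehicle replicate 1 (0.48, adjusted p = 0.0716), 12 h replicate 1 (0.67, adjusted p = 0.0630) or 12 h replicate 2 (0.59, adjusted p = 0.0876) was left out. With a library left out, the lone sample of its group is assumed to vary like the other groups.

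Dnajb1, the Hsp40 that delivers clients to Hsp70, was the only member called at both times against vehicle. Its levels were 47.1 and 52.4 CPM in vehicle, 66.5 and 79.6 at 2 h, and 79.8 and 85.1 at 12 h. All 4 treated libraries were above both vehicle libraries, and each 12 h library was above each 2 h library. The latter was close to a tie, at 79.76 CPM for 12 h replicate 1 and 79.58 for 2 h replicate 2. With total counts in place of TMM scaling it did not hold, at 31.1 and 32.1 RPKM for these libraries. Dnajb1 rose at 2 h by 0.55 ± 0.13 on the log2 scale (1.47-fold, adjusted p = 0.0312) and at 12 h by 0.73 ± 0.13 (1.66-fold, adjusted p = 0.00413), while the times differed by 0.17 ± 0.12 (adjusted p = 0.319, 95% confidence interval -0.12 to 0.47). The 12 h call held in each of 14 alternatives, with adjusted p from 1.97e-05 to 0.0388. The 2 h call did not: it ended with total counts in place of TMM scaling (0.44, adjusted p = 0.0743), in a fit of the 2 groups alone (adjusted p = 0.0831), and without vehicle replicate 1 (0.48, adjusted p = 0.186), vehicle replicate 2 (0.63, adjusted p = 0.0936), 2 h replicate 2 (0.42, adjusted p = 0.0885), 12 h replicate 1 (adjusted p = 0.0795) or 12 h replicate 2 (adjusted p = 0.0801).

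Hspa8, the constitutive Hsp70 that folds newly made proteins, was measured at 101 and 198 CPM in vehicle, 132 and 230 at 2 h, and 152 and 283 at 12 h. The groups overlapped widely, since replicate 2 was 1.96-fold above replicate 1 in vehicle, 1.74-fold at 2 h and 1.87-fold at 12 h. Of the 11080 genes tested, 30, Hspa8 included, had replicates apart by at least the smallest of these folds of Hspa8 in each group. For each such gene the direction, up or down, was the same in the 3 groups. Without a replicate block, its log2 fold changes were 0.28 ± 0.43 at 2 h (adjusted p = 0.707) and 0.54 ± 0.43 at 12 h (adjusted p = 0.351), and the 95% confidence interval at 12 h, -0.49 to 1.58, was wide. The SE of Hspa8 was more than that of each other member except Hspb1 at 2 h.

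The stress-inducible pair carried few reads. Hspa1b was at 8.13 and 9.75 CPM in vehicle, 6.38 and 9.44 at 2 h, and 9.89 and 9.40 at 12 h, and the 3 groups overlapped. Its log2 fold changes, -0.18 ± 0.23 at 2 h (adjusted p = 0.664) and 0.11 ± 0.23 at 12 h (adjusted p = 0.730, 95% confidence interval -0.44 to 0.67), did not pass the test, and the 12 h value changed sign with total counts in place of TMM scaling (-0.02). Hspa1a had 23 and 21 counts in vehicle, 17 and 19 at 2 h, and 28 and 32 at 12 h. It did not pass the filter of 2 CPM in 2 libraries and was therefore not tested with the others. In a fit of all 16115 genes with a count, its log2 fold changes were -0.56 ± 0.37 at 2 h (adjusted p = 0.438) and 0.08 ± 0.35 at 12 h (adjusted p = 0.905). When both genes were summed, since reads from one can be lost to the other, the log2 fold changes were -0.22 ± 0.22 at 2 h (adjusted p = 0.546) and 0.11 ± 0.22 at 12 h (adjusted p = 0.718).

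Hsph1, the Hsp110 nucleotide exchange factor, was measured at 73.4 and 111 CPM in vehicle, 58.5 and 94.2 at 2 h, and 84.8 and 78.6 at 12 h. Its groups overlapped, with replicate 2 at 1.51-fold of replicate 1 in vehicle and 1.61-fold at 2 h but 0.927-fold at 12 h. The log2 fold changes were -0.27 ± 0.27 at 2 h (adjusted p = 0.547) and -0.17 ± 0.27 at 12 h (adjusted p = 0.631). Between 2 h and 12 h the log2 fold change was 0.10 ± 0.27 (adjusted p = 0.802).

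**Figure D3:**
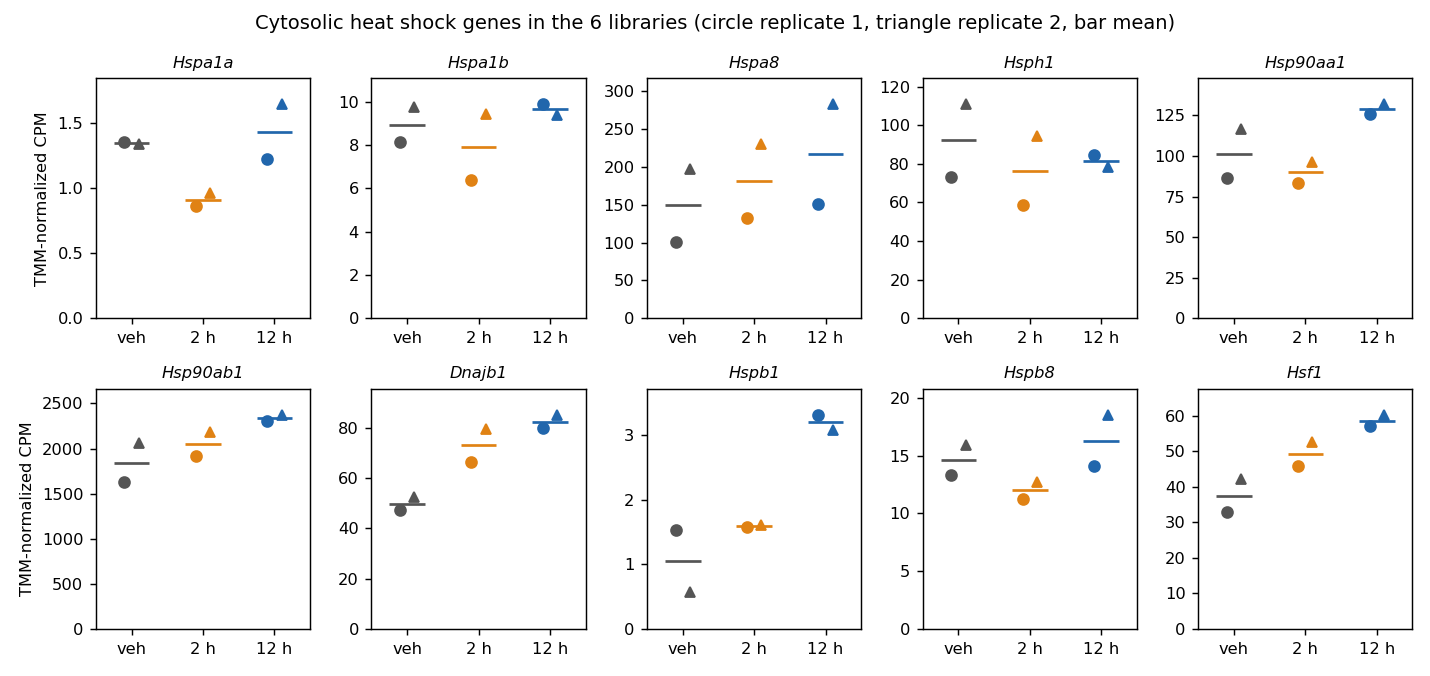
Each panel gives one gene's CPM (linear axis from 0) in the 2 libraries of vehicle, TGFβ 2 h and TGFβ 12 h, with a bar at the group mean and a different marker for each replicate number. Replicate 2 of Hspa8 is above replicate 1 in every group, and Dnajb1 and Hsf1 have no overlap between groups. For Dnajb1, 12 h replicate 1 and 2 h replicate 2 are close to a tie (79.76 and 79.58 CPM).

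After TMM scaling, the Hsp90 genes were higher in both 12 h libraries than in both vehicle libraries, though neither passed the test against vehicle. How many of all genes separate in this way was not counted. Hsp90aa1 stood at 86.2 and 117 CPM in vehicle, 83.5 and 96.5 at 2 h, and 126 and 132 at 12 h. Both 12 h libraries were above the other 4, and vehicle and 2 h overlapped. With total counts in place of TMM scaling, 12 h replicate 1 of Hsp90aa1 (30.9 RPKM) lay below vehicle replicate 2 (31.7). Its log2 fold change was -0.17 ± 0.16 at 2 h (adjusted p = 0.524) and 0.35 ± 0.16 at 12 h (adjusted p = 0.130), and Hsp90aa1 rose between 2 h and 12 h by 0.52 ± 0.16 (1.43-fold, adjusted p = 0.0482). That call lay close to the threshold: it ended with total counts (adjusted p = 0.0662), with a filter of 10 counts in every library (adjusted p = 0.0505), and without 2 h replicate 1 (0.42, adjusted p = 0.118), 12 h replicate 1 (0.54, adjusted p = 0.157) or 12 h replicate 2 (0.48, adjusted p = 0.198). Without vehicle replicate 2, the 12 h value of Hsp90aa1 against vehicle became 0.58 and passed (adjusted p = 0.0373), and without vehicle replicate 1 it was 0.14 (adjusted p = 0.531).

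Hsp90ab1 stood at 1624 and 2067 CPM in vehicle, 1923 and 2181 at 2 h, and 2308 and 2374 at 12 h. The 12 h libraries were above all others, and vehicle and 2 h overlapped. The log2 fold changes were 0.15 ± 0.15 at 2 h (adjusted p = 0.531) and 0.34 ± 0.15 at 12 h (adjusted p = 0.101, 95% confidence interval -0.005 to 0.69). Without vehicle replicate 2 the 12 h value was 0.53 and passed the test (adjusted p = 0.0469), and without vehicle replicate 1 it was 0.18 (adjusted p = 0.415).

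Hspb1, the small heat shock protein also called Hsp25 in the mouse, had the largest log2 fold change of the members and the fewest counts of those tested: 26 and 9 in vehicle, 31 and 32 at 2 h, and 76 and 60 at 12 h. In CPM these were 1.53 and 0.574, 1.57 and 1.61, and 3.31 and 3.08. The 12 h libraries were above the other 4, and vehicle replicate 2 was the lowest. Hspb1 rose at 12 h by 1.59 ± 0.43 on the log2 scale (adjusted p = 0.0234) and was the only member with a call and an absolute log2 fold change above 1. It passed the filter on low counts through its 12 h libraries alone, so that among the genes tested it had to differ, and its call adds nothing to a count over the members. The value rested on the vehicle libraries: without vehicle replicate 1 it was 2.47 (adjusted p = 0.00990) and without vehicle replicate 2 it was 1.06 (adjusted p = 0.0799). The call also ended without 12 h replicate 1 (1.51, adjusted p = 0.113) or 12 h replicate 2 (1.62, adjusted p = 0.0947). At 2 h the log2 fold change was 0.58 ± 0.45 (adjusted p = 0.435), and between the times it was 1.00 ± 0.40 (adjusted p = 0.0981).

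By Euclidean distance between log2 CPM centred on each gene's mean over the 6 libraries, the genes nearest to Hspb1 were Pcdhb20 (0.400), Pdzd4 (0.425), Slc52a3 (0.479), Nebl (0.493) and Krt7 (0.497). They were far from alone, since 322 of the tested genes lay within a distance of 1. Pcdhb20 encodes a protocadherin, and Krt7 is one of the epithelial keratins counted above. Their log2 fold changes at 12 h were 2.00 for Pcdhb20, 1.55 for Pdzd4, 1.92 for Slc52a3, 1.34 for Nebl and 1.60 for Krt7. The genes were chosen by closeness over the same 6 libraries, so a rise like that of Hspb1 was set by the choice.

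Hspb8, a small heat shock protein that works with the co-chaperone BAG3 in selective autophagy, was measured at 13.4 and 15.9 CPM in vehicle, 11.2 and 12.8 at 2 h, and 14.1 and 18.5 at 12 h. Both 2 h libraries were below both vehicle libraries, and vehicle overlapped 12 h. The log2 fold change was -0.29 ± 0.20 at 2 h (adjusted p = 0.380), 0.15 ± 0.19 at 12 h (adjusted p = 0.558) and 0.44 ± 0.19 between the times (adjusted p = 0.127), so that none passed the test.

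**Figure D4:**
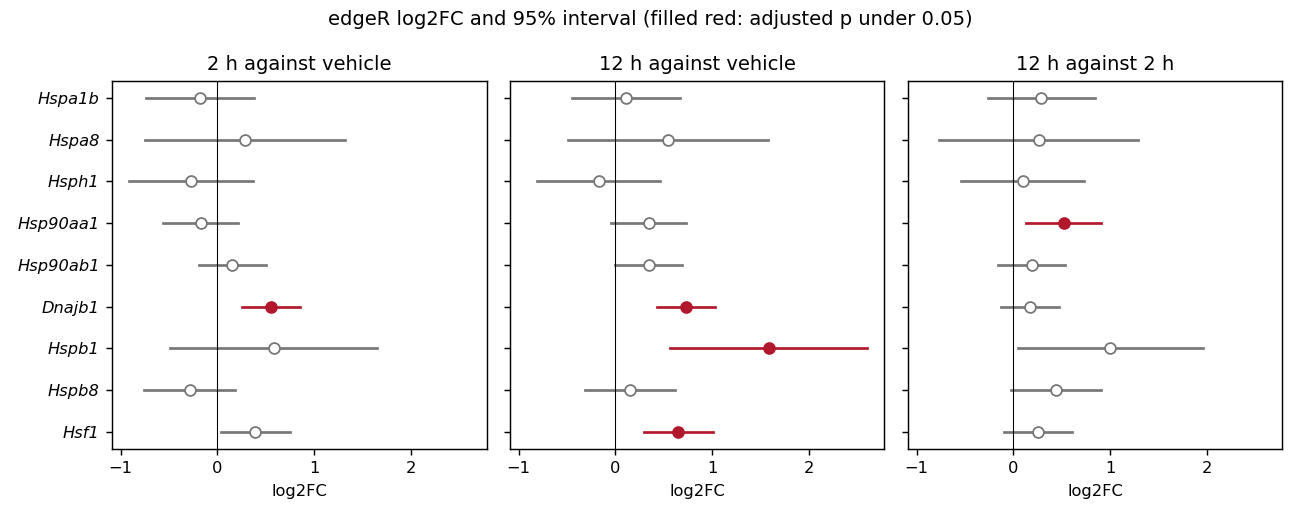
Points give the log2 fold change of each of the 9 tested members in the 3 comparisons, with bars for the 95% confidence interval and filled points for adjusted p below 0.05. Filled points are Dnajb1 at 2 h; Dnajb1, Hspb1 and Hsf1 at 12 h; and Hsp90aa1 between 2 h and 12 h.

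Counted over the 8 tested members other than Hspb1, 1 rose at 2 h (Dnajb1), where 9.91% of all 11080 genes tested were called higher, and none was called lower, against 5.25% of all genes. At 12 h 2 of the 8 rose (Dnajb1 and Hsf1), where 21.8% of all genes were called higher, and none was called lower, against 21.5%. Between 2 h and 12 h 1 of the 8 rose (Hsp90aa1), with 15.2% of all genes called higher and 18.9% lower. At an unadjusted p below 0.05 the counts were 2, 2 and 1, none of them lower, beside 3289, 5719 and 5015 of the 11080 genes, and limma-voom and DESeq2 also called no member lower in any comparison. The median log2 fold change of the 8 was -0.01 at 2 h, 0.34 at 12 h and 0.26 between the times, beside -0.01, 0.02 and 0.01 over the genes that did not pass the filter through one group alone. With total counts in place of TMM scaling, the median of all genes moved by -0.11 at 2 h and -0.13 at 12 h, and the genes called changed from 1098 higher and 582 lower to 854 and 975 at the early time, and from 2414 and 2385 to 1830 and 3047 at the late time.

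The other chaperones and heat shock genes, 67 from 10 lists of which 58 were tested, gave 5 calls upward and 3 downward at 2 h, 15 and 3 at 12 h, and 8 and 2 between the times. Over all genes tested, 9.91% and 5.25%, 21.8% and 21.5%, and 15.2% and 18.9% were called in these directions. Their median log2 fold changes were 0.08, 0.19 and 0.14. Bag3, the co-chaperone that links Hsp70 to the small heat shock proteins, was at 34.5 and 43.5 CPM in vehicle, 138 and 124 at 2 h, and 59.3 and 65.3 at 12 h. It rose by 1.74 ± 0.14 on the log2 scale at 2 h (adjusted p = 0.000845) and had a log2 fold change of -1.07 ± 0.14 from 2 h to 12 h (adjusted p = 0.00219). Both calls held without each library. At 12 h against vehicle it was 0.68 ± 0.14 higher (adjusted p = 0.00900), a call that ended without vehicle replicate 1 (0.52, adjusted p = 0.0534) or 12 h replicate 2 (0.59, adjusted p = 0.0760). Its 3 groups did not overlap, with 2 h highest.

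Among the partners of Hsp90, 1 of 14 rose at 2 h and 3 of 14 at 12 h, with none lower, beside 9.91% and 21.8% of all genes called higher. Fkbp5, an immunophilin that binds Hsp90 in steroid receptor complexes, rose by 1.43 ± 0.13 at 2 h (adjusted p = 0.00113) and 1.67 ± 0.13 at 12 h (adjusted p = 0.000170), and the groups did not overlap. Unc45a, a myosin chaperone, rose at 12 h by 0.73 ± 0.12 (adjusted p = 0.00301), and Cdc37, which brings kinases to Hsp90, by 0.57 ± 0.12 (adjusted p = 0.00789), the latter ending without vehicle replicate 1 (0.46, adjusted p = 0.0592), 12 h replicate 1 (0.57, adjusted p = 0.0510) or 12 h replicate 2 (0.54, adjusted p = 0.0598).

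Among the partners of Hsp70, Hspa4, a second Hsp110, rose by 0.83 ± 0.10 at 12 h (adjusted p = 0.00103), the only call at that time among the 5 tested of its list. Of 8 tested Hsp40 co-chaperones, 1 rose at 12 h, Dnajb5 by 0.98 ± 0.16 (adjusted p = 0.00310), and 1 fell at 2 h, Dnajb4 by -1.13 ± 0.17 (adjusted p = 0.00710). Of the 6 Hsp70 exchange factors, 3 rose at 12 h and 1 fell: besides Bag3, Hspbp1 rose by 0.76 ± 0.14 (adjusted p = 0.00549) and Bag5 by 0.63 ± 0.11 (adjusted p = 0.00362), whereas Bag2 fell by -0.71 ± 0.11 (adjusted p = 0.00293). These calls, other than that of Bag3 given above, held without each library. Over all genes, 21.8% were called higher and 21.5% lower at 12 h, and 9.91% and 5.25% at 2 h.

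Other calls among the partners of Hsp70 at 2 h were less stable. Hspa4 rose by 0.54 ± 0.10 (adjusted p = 0.0170), which ended with the 2 groups alone (adjusted p = 0.0654) and without vehicle replicate 1 (0.120), vehicle replicate 2 (0.0827), 12 h replicate 1 (0.0634) or 12 h replicate 2 (0.0647). Bag2 rose at 2 h, against its fall at 12 h, by 0.44 ± 0.11 (adjusted p = 0.0459), a call that held only without 2 h replicate 2 among the left-out libraries (adjusted p from 0.114 to 0.207 without the others) and ended in 4 other settings (adjusted p from 0.0516 to 0.115). Bag4 fell by -0.76 ± 0.16 (adjusted p = 0.0247), which ended without vehicle replicate 1 (adjusted p = 0.104), vehicle replicate 2 (0.113) or 2 h replicate 2 (0.0699).

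Of each list, the most abundant gene without a call is given here. At 12 h the log2 fold change was 0.01 ± 0.13 for Hspa4l, -0.22 ± 0.11 for Dnajc5, -0.23 ± 0.12 for Bag1, 0.26 ± 0.10 for St13, 0.30 ± 0.14 for Cct5, 0.04 ± 0.12 for Pfdn5, 0.07 ± 0.11 for Hsbp1, -0.004 ± 0.13 for Hspa9 and 0.21 ± 0.18 for Stip1, with adjusted p from 0.0722 (St13) to 0.983 (Hspa9). Hspb6, the uncalled small heat shock protein gene, had -0.77 ± 0.52 (adjusted p = 0.273). At 2 h the values of Hspa4l, Dnajc5, Bag1, St13, Pfdn5, Hsbp1, Hspa9 and Stip1 lay between -0.07 and 0.15, with adjusted p of 0.477 or more, beside 0.02 ± 0.10 for Cct2 (adjusted p = 0.927) and -0.18 ± 0.21 for Cryab (adjusted p = 0.620).

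In the chaperonin CCT, which folds actin and tubulin, 3 of 8 subunits rose at 12 h, and all 8 had positive log2 fold changes at 12 h (0.12 to 0.52). The lowest, Cct4 (adjusted p = 0.373), was smaller in size than the -0.13 by which total counts moved the median of all genes. The share of all genes with a positive value was not counted. Of the 6 prefoldin subunits, which deliver clients to CCT, 3 rose at 12 h. At that time 21.8% of all genes were called higher. Each of these 6 calls ended without at least 1 library, and all but that of Cct6a also ended with total counts in place of TMM scaling (adjusted p = 0.126 for Cct2, 0.0556 for Cct3, 0.132 for Pfdn1, 0.159 for Pfdn4 and 0.121 for Pfdn6). For Cct6a (0.48 ± 0.09, adjusted p = 0.00611) this was 12 h replicate 1 (0.44, adjusted p = 0.0554). For Cct3 (0.52 ± 0.12, adjusted p = 0.0152) the adjusted p was 0.0940 without vehicle replicate 1, 0.0607 without 12 h replicate 1 and 0.104 without 12 h replicate 2. The call of Cct2 (0.36, adjusted p = 0.0287) was lost without any one of the vehicle or 12 h libraries (adjusted p = 0.0694 to 0.191), as was that of Pfdn1 (0.45, adjusted p = 0.0403), at 0.108 to 0.168. Pfdn4 (0.39, adjusted p = 0.0444) kept its call, among the left-out libraries, only without 2 h replicate 2 (adjusted p up to 0.209 without the others) and also lost it with DESeq2 (0.0578), with 10 counts in every library (0.0520) and without a filter (0.0650). Pfdn6 (0.41, adjusted p = 0.0334) lost it without vehicle replicate 1 (0.194), 12 h replicate 1 (0.122) or 12 h replicate 2 (0.171).

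Of the 6 other small heat shock protein genes 2 were tested, and Cryab, the αB-crystallin gene, fell at 12 h (-0.82 ± 0.21, adjusted p = 0.0205), which ended without vehicle replicate 2 (-0.56, adjusted p = 0.111), 12 h replicate 1 (-0.74, adjusted p = 0.121) or 12 h replicate 2 (-0.93, adjusted p = 0.0725). The 4 mitochondrial heat shock proteins had median log2 fold changes of -0.05 at 2 h, 0.08 at 12 h and 0.05 between the times, and no adjusted p under the threshold; the lowest unadjusted p was that of Hspd1, named after its value was seen, between the times (0.0286).

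Of the 14 genes of the list commonly induced by heat shock, 2 were called higher and 1 lower at 2 h and again at 12 h, and 4 were higher and 1 lower between the times. For all genes the shares called higher and lower were 9.91% and 5.25% at the early time, 21.8% and 21.5% at the late time and 15.2% and 18.9% between them. Serpinh1, a collagen chaperone of the endoplasmic reticulum, rose at 2 h by 0.64 ± 0.10 (adjusted p = 0.00724) and at 12 h by 1.17 ± 0.10 (adjusted p = 0.000228), the former ending without vehicle replicate 2 (0.59, adjusted p = 0.0688). Bag3 was the other gene called higher, and Dnajb4 at 2 h and Cryab at 12 h were those called lower. Hsf2, a second heat shock factor, fell by -0.69 ± 0.13 at 2 h (adjusted p = 0.0156) and -0.56 ± 0.13 at 12 h (adjusted p = 0.0118), calls that ended without vehicle replicate 1 (adjusted p = 0.0844 and 0.0558) or vehicle replicate 2 (adjusted p = 0.0797 and 0.0555), and at 12 h also without 12 h replicate 2 (adjusted p = 0.0921).

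**Figure D5:**
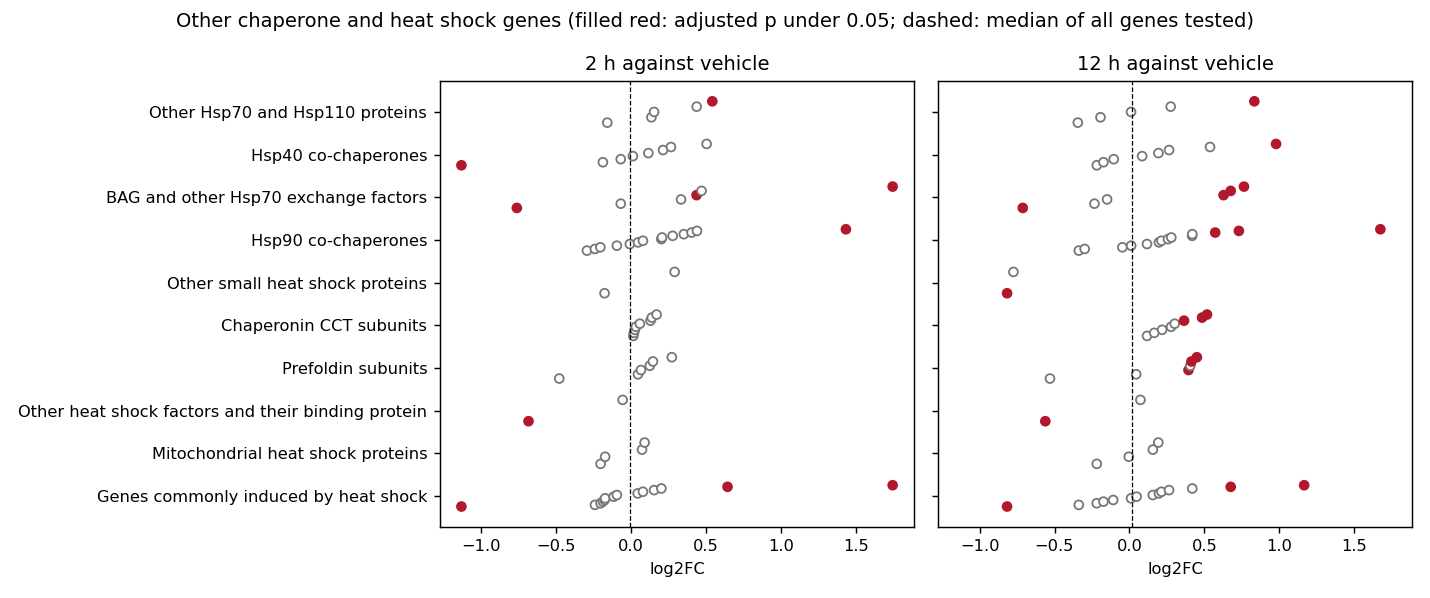
For each of the 10 lists, points give the log2 fold change of every tested gene against vehicle at 2 h (left) and 12 h (right), with filled points for adjusted p below 0.05 and a dashed line at the median of all genes tested. Fkbp5 and Bag3 reach the highest values at 2 h (1.43 and 1.74) and the mitochondrial list holds no filled point.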

How the data were processed

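Total RNA (RNeasy) from 6 NMuMG cultures was made into TruSeq stranded libraries. The authors filtered reads, aligned them to mm9 with subjunc (Subread, uniquely placed reads), ran SAMtools 0.1.19 rmdup and deposited counts per gene from featureCounts (UCSC KnownGene exons, reverse strand, miRNAs left out). These deposited counts are raw. For genes such as Hsp90ab1 they exceed the number of exonic bases, so reads sharing a start were still present, and counts that include PCR copies are not independent molecules. The authors' fold changes were not used.

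Counts were tested with edgeR 4.0.16 (quasi-likelihood, TMM; R 4.3.3) over all 11080 genes with at least 2 CPM in 2 libraries, the 3 groups in one fit without a replicate block, Benjamini-Hochberg adjusted over all of them and called at an adjusted p under 0.05. The study's own test, limma-voom, and DESeq2 1.42.0 were alternatives (limma 3.58.1), as were other scalings, filters and left-out libraries. CPM are TMM-scaled. RPKM used union exons of GENCODE vM1 on NCBIM37. Replicates of a group differed by more than counting noise (chi-square per degree of freedom 16.8 to 52.8). All members are named, and the other genes named come from a rule that takes, per list and comparison, up to 3 called genes with the smallest adjusted p and 1 uncalled gene with the highest CPM, with the 5 genes nearest to the member with the largest 12 h change. The rule for the members goes by name alone, but the members and lists were chosen with earlier results of these data known.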

Additional observations from a re-analysis of the deposited data

Results flagged for a closer look

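The 12 h and 2 h responses, which share their vehicle libraries, were compared directly as the difference between the 12 h and 2 h libraries, and 11 genes among the 9 members and 58 other chaperones tested passed that test (edgeR's quasi-likelihood test, Benjamini-Hochberg adjusted over all genes), 9 of them higher and 2 lower, where 15.2% of all genes were called higher and 18.9% lower. The 12 h cells had also spent more hours without serum and insulin, which cannot be told apart from the longer exposure to TGFβ. Lower at 12 h than at 2 h were Bag2, with a log2 fold change of -1.15, and Bag3, with -1.07. Higher at 12 h were Dnajb4 (0.96), Ppid (0.62), Bag4 (0.61), Serpinh1 (0.52), the member Hsp90aa1 (0.52), Dnaja1 (0.45), Chordc1 (0.44), Cct6a (0.43) and Cct2 (0.35). Bag2 fell from 109 and 94.0 CPM at 2 h to 44.2 and 47.3 at 12 h, with vehicle between at 76.9 and 72.9, whereas Dnajb4 was at 27.0 and 19.6 CPM at 2 h and 47.0 and 43.6 at 12 h, beside 48.4 and 53.7 in vehicle. Of the 11 calls, those of Bag2 and Bag3 held without each library. The others ended without 1 or more: Dnajb4 without 12 h replicate 1 (0.89, adjusted p = 0.0631), Serpinh1 and Cct6a without either 12 h library (adjusted p = 0.0575 and 0.0613 for Serpinh1, 0.0967 and 0.0757 for Cct6a), Bag4 without 2 h replicate 2 or 12 h replicate 1 (adjusted p = 0.0778 and 0.177), Ppid without 2 h replicate 2 or either 12 h library (adjusted p from 0.0662 to 0.161), Chordc1 without any one of the 2 h or 12 h libraries (0.0536 to 0.223), Dnaja1 without any library but 2 h replicate 1 (0.0580 to 0.212) and Cct2 without any library (0.0636 to 0.233).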

How the results depend on the processing

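Members called higher at 2 h, 12 h and between the times numbered 1, 3 and 1 in the reported fit. The counts at 12 h and between the times include Hspb1 wherever it was called, although it passed the filter through its 12 h libraries alone (2 at 12 h without it in the reported fit). With total counts these were 0, 3 and 0, with 10 counts in every library the last was 0, with 2 groups alone 0, 3 and 2, and with an absolute log2 fold change above 1 also required 0, 1 (Hspb1) and 0. Leaving out 1 library gave 0 to 1, 1 to 4 and 0 to 2. No member was called lower under any alternative. Other chaperones called higher numbered 5, 15 and 8, and 4, 10 and 7 with total counts, 2, 2 and 0 above the fold limit, 3 at 2 h with 2 groups alone, and 2 to 6, 8 to 18 and 0 to 6 with 1 library left out. Those lower numbered 3, 3 and 2, and 1 and 0 above the fold limit at 2 h and 12 h, 5 at 12 h with total counts and with 2 groups alone, 4 between the times with DESeq2, without a filter and with 2 groups alone, and 1 to 4, 1 to 5 and 2 to 5 with 1 library left out.

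Replicate numbers are shared by the groups, but the labels tie them to no common culture or day, and each comparison has 2 pairs. Deviations of same-numbered samples correlated at 0.71 (vehicle and 2 h), 0.26 (vehicle and 12 h) and 0.39 (2 h and 12 h). With the replicate block, members called higher numbered 3 (Dnajb1, Hspa8 and Hsf1), 6 (the same with Hsp90aa1, Hsp90ab1 and Hspb1) and 3 (Hsp90aa1, Hspb1 and Hspb8), and other chaperones 12, 22 and 18 higher and 4, 6 and 5 lower. The share of all genes called in this blocked fit was not counted, so these numbers cannot be set against a background. Hspa8 then had 0.31 at 2 h (adjusted p = 0.0364) and 0.55 at 12 h (adjusted p = 0.000832), and Hsf1 had 0.40 at 2 h (adjusted p = 0.0248).

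Among single genes, 750 alternative values kept direction and side of the threshold, 106 lost the call, 12 gained it and 14 changed sign, all of the last on values that had not passed. The sign of Hspa1b at 12 h turned with total counts (-0.020). With 1 library left out, the lowest and highest log2 fold changes were -0.49 and 0.061 for Hspa1b, -0.17 and 0.85 for Hspa8, -0.66 and 0.056 for Hsph1, -0.38 and 0.063 for Hsp90aa1 and -0.011 and 0.34 for Hsp90ab1 at 2 h, -0.015 and 0.25 for Hspa1b, -0.44 and 0.15 for Hsph1 and -0.072 and 0.32 for Hspb8 at 12 h, and -0.26 and 0.71 for Hspa8 and -0.20 and 0.48 for Hsph1 between the times. The causes were not tested. The share of Hsp90ab1 in the summed RPKM was 78.9%, 79.2% and 77.4% with unique windows as length (chosen after seeing the data). Hspa1a, at 17 to 32 counts, and Hspb1, at 9 to 76, limit what these depths can show.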
